A study of Homo sapiens with 6 samples.

Results

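Assembly factors of oxidative phosphorylation are proteins that help to build the respiratory chain complexes and the ATP synthase without staying in the finished enzyme. The 48 genes described here were taken by symbol, and all 48 had a row among the 38986 gene symbols of the count files. They comprise 15 factors of complex I, 4 of complex II, 6 of complex III, 19 of complex IV and 4 of complex V. RNA-seq libraries came from mCherry-positive cells labelled 293T, a human embryonic kidney line with the SV40 large T antigen. In 1 group of 3 libraries the cells are labelled with wild-type STAT6 (genotype STAT6 overexpression), and in the other group of 3 they are labelled Mock (genotype WT). Both groups are given the same culture in DMEM with fetal bovine serum. No age, dose or time is given for either, nor whether the replicates were separate cultures, so the p-values rest on the spread among these 6 libraries, which may be technical. The comparison addresses the part of STAT6 in mitochondrial gene expression.

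The content of the files and the labels differed, which bears on every direction below. The rows carry mouse gene symbols although the labels name a human line. Stat6 itself stood at 33.6 ± 1.53 CPM (counts per 1000000 of the scaled library total, mean ± SD, n = 3) in the libraries labelled STAT6 and at 94.4 ± 1.49 in those labelled Mock. The 9 melanocyte markers summed to between 16997 and 17146 CPM in the libraries labelled STAT6 and to between 14658 and 15010 in those labelled Mock. Of these markers 5 were higher, among them Dct (log2 fold change 0.54) and Tyrp1 (0.09), and 3 were lower, namely Tyr, Oca2 and Pmel. The largest change of the 9 was the fall of Tyr, at 29.1 ± 0.757 CPM against 303 ± 5.29 (log2 fold change -3.38). The 8 kidney epithelium markers summed to at most 3.13 CPM in any library, with Pax8 and Umod at 0 in all. Leukocyte markers, with Adgre1 and Cd3e at 0, summed to at most 4.02 CPM. Fibroblast and endothelial markers, with Cdh5 at 0, summed to between 82.3 and 88.9 CPM against 35.0 to 36.1. Of the 4 tested among these 7, Col1a1 rose (log2 fold change 4.02) while Col1a2 (-2.64) and Pdgfrb (-2.20) fell. The part of these differences in the results below was not tested. Depth was 19894773 to 29802693 counts per library, and pairs of libraries of a group differed by 1.46 to 2.48 times the median chi-square of counting noise, so none was a copy of another. Below, "higher" and "rose" refer to the libraries labelled STAT6, whose own Stat6 level was the lower of both groups.

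As background, each respiratory complex is built from modules, several of which need cofactors put in place before the subunits can join. Complex I is assembled from a Q module, an N module and membrane modules, the last on a scaffold known as the mitochondrial complex I intermediate assembly (MCIA) complex. Complex II needs a covalent flavin and iron-sulfur clusters, complex III a late insertion of the Rieske iron-sulfur protein, and complex IV heme A and copper in its mtDNA-encoded core subunits. Complex V needs chaperones that keep the free alpha and beta subunits of its catalytic head apart until they pair. Inherited loss of many of these factors causes mitochondrial disease in people, which is how several were found.

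Of the 48 genes 9 were higher, 17 were lower and 22 did not pass the threshold, an adjusted p of 0.05 in edgeR's quasi-likelihood test over all genes. All 48 had passed the filter on low counts. The 26 that passed are 54.2% of the genes, whereas 72.6% of the 12938 genes tested passed. By direction, 18.8% of the assembly factor genes rose against 35.8% of all genes, and 35.4% fell against 36.8%. Their median log2 fold change was -0.07, against -0.00 over all genes. Changes were also smaller in size: the median size, either way, was 0.21 on the log2 scale against 0.35. Only 5 genes (10.4%) passed and were beyond 1.5-fold, namely Sco1 and Cox17, which rose, and Cox11, Ndufaf6 and Ecsit, which fell, where 29.1% of all genes did so. Beyond 2-fold there were 2, Sco1 and Cox11, both of copper delivery to complex IV, against 15.5% of all genes. The CPM ranges of the groups did not overlap for 29 genes (60.4%), against 74.6% of all genes.

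**Figure D1:**
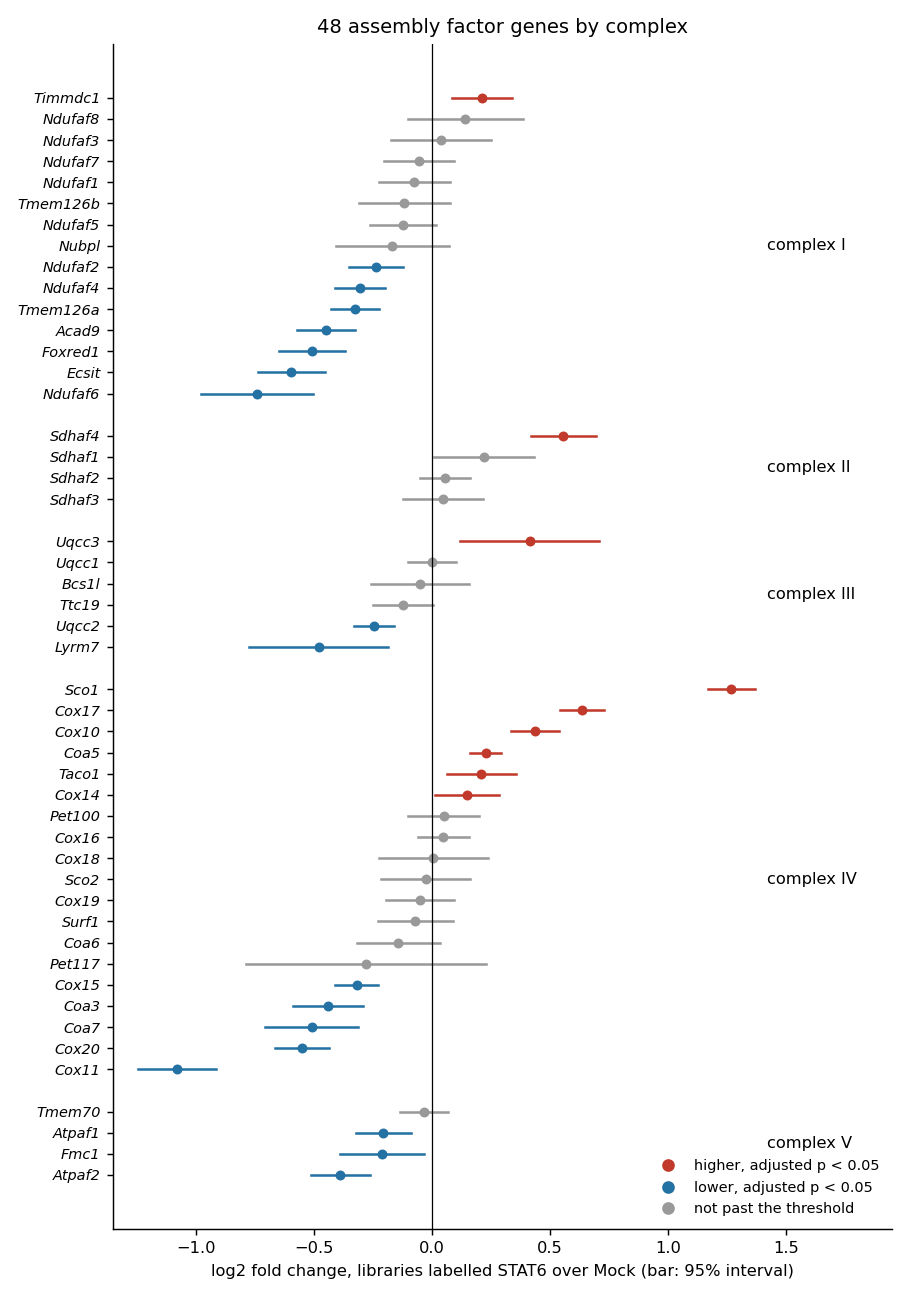
Log2 fold change (x axis) of each of the 48 genes (rows, grouped by complex), libraries labelled STAT6 over those labelled Mock, with 95% intervals from the edgeR fit. Red points passed as higher (9 genes), blue as lower (17) and grey did not pass (22); Sco1 (1.27) and Cox11 (-1.08) lie at the ends, and no complex V factor lies to the right of 0.

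The genes had fewer counts than the typical gene, a median of 415.7 per library against 603.8. The part of this in the share that passed was not tested. Among all genes whose mean count lay in the range of the 48 (53.3 to 4210) the share that passed was 75.1%. At a mean of 400 counts or more, 18 of 25 assembly factor genes passed (72.0%) against 79.7% of all genes in the range. Under 400 counts, 8 of 23 passed (34.8%) against 66.0%. The median size of the log2 fold change was 0.14 against 0.39 under 400 counts, and 0.25 against 0.29 at 400 or more. The spread within groups was close to that of other genes, with a median coefficient of variation of 5.16% against 4.85%. Of the 22 genes that did not pass, 15 had a 95% interval that lay within 1.2-fold either way and 21 within 1.5-fold. The exception was Pet117, at a mean of 53.3 counts, whose log2 interval ran from -0.79 to 0.23.

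**Figure D2:**
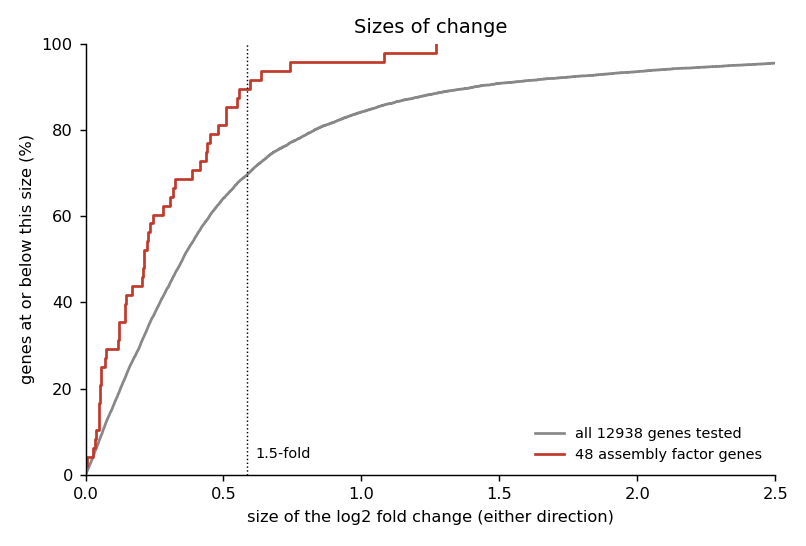
Share of genes (y axis, percent) whose log2 fold change was at or below the size on the x axis, for the 48 assembly factor genes (red) and all 12938 genes tested (grey). The red curve lies above the grey over most of the range, and 10.4% of the assembly factor genes against 29.1% of all genes passed the test and lay beyond the dotted line at 1.5-fold.

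Of the 15 complex I factors 7 fell, 1 rose (Timmdc1) and 7 did not pass, with a median log2 fold change of -0.17. The 7 that fell are 46.7% of them, against 36.8% of all genes. Their summed level was 270, 273 and 264 CPM in the libraries labelled STAT6 and 317, 311 and 324 CPM in those labelled Mock. The sums did not overlap, and the ratio of the means was 0.847. In bulk RNA a lower level per cell and fewer cells with the transcript cannot be told apart.

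In the MCIA complex the falls were in Ecsit and Acad9. Ecsit, which also serves as an adaptor in innate immune signalling, had 13.8, 13.4 and 13.1 CPM in the libraries labelled STAT6 and 21.0, 20.4 and 19.5 CPM in those labelled Mock. The groups were well apart, at -0.60 on the log2 scale (SE 0.07, adjusted p = 2.12e-09). Acad9, a relative of the acyl-CoA dehydrogenases that is needed on the scaffold, had 22.4, 25.1 and 21.5 CPM against 31.7, 30.7 and 31.8 (-0.45, SE 0.06, adjusted p = 3.74e-08). Timmdc1, a membrane protein that works on the module around ND1, went the other way. It had 27.7, 30.4 and 27.4 CPM against 22.7, 24.8 and 25.9, so the groups were separate by a small gap (log2 fold change 0.21, SE 0.06, adjusted p = 0.00262). The 2 remaining scaffold members, Ndufaf1 (-0.07, adjusted p = 0.369) and Tmem126b (-0.12, adjusted p = 0.27), did not pass. The members of this scaffold were thus divided between a fall, a rise and values within the spread.

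Among the factors of the Q module and the enzymes that modify its subunits, Ndufaf6 and Ndufaf4 fell. Ndufaf6 resembles enzymes of squalene and phytoene synthesis in sequence. It stood at 5.39, 6.08 and 4.26 CPM in the libraries labelled STAT6 and at 8.80, 8.61 and 8.82 CPM in those labelled Mock. This was the largest fall among the complex I factors, at -0.74 (SE 0.12, adjusted p = 7.65e-07), and the libraries labelled STAT6 were less alike than those labelled Mock. Ndufaf4, which joins the Q module to the membrane arm with Ndufaf3, had 36.0, 34.0 and 33.5 CPM against 43.3, 40.2 and 44.3 (-0.31, SE 0.05, adjusted p = 3.03e-06). Its partner Ndufaf3 was at 0.04 (adjusted p = 0.747). The other members did not pass either. They were Ndufaf5, which hydroxylates Ndufs7 (-0.12, adjusted p = 0.112), its binding partner Ndufaf8 (0.14, adjusted p = 0.293) and Ndufaf7, a methyltransferase (-0.06, adjusted p = 0.507).

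Of the remaining complex I factors 3 fell and Nubpl did not pass. Foxred1, a flavin-dependent oxidoreductase, had 16.4, 14.7 and 14.8 CPM against 21.0, 22.5 and 21.8, with no overlap (-0.51, SE 0.07, adjusted p = 3.81e-08). Tmem126a, a membrane factor related to Tmem126b, had 43.5, 46.7 and 42.1 CPM against 54.6, 52.2 and 58.5 (-0.32, SE 0.05, adjusted p = 4.92e-07). Tmem126a therefore passed where Tmem126b did not, but the difference between them was not tested. Ndufaf2, a relative of the subunit Ndufa12 that acts late, had 26.4, 26.9 and 27.0 CPM against 30.3, 32.9 and 31.3 (-0.24, SE 0.06, adjusted p = 0.000342). Nubpl, an iron-sulfur protein, was lower in all 3 libraries labelled STAT6, at 5.39, 5.92 and 5.58 CPM against 6.68, 6.12 and 6.18, but at -0.17 it missed the threshold (adjusted p = 0.203).

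**Figure D3:**
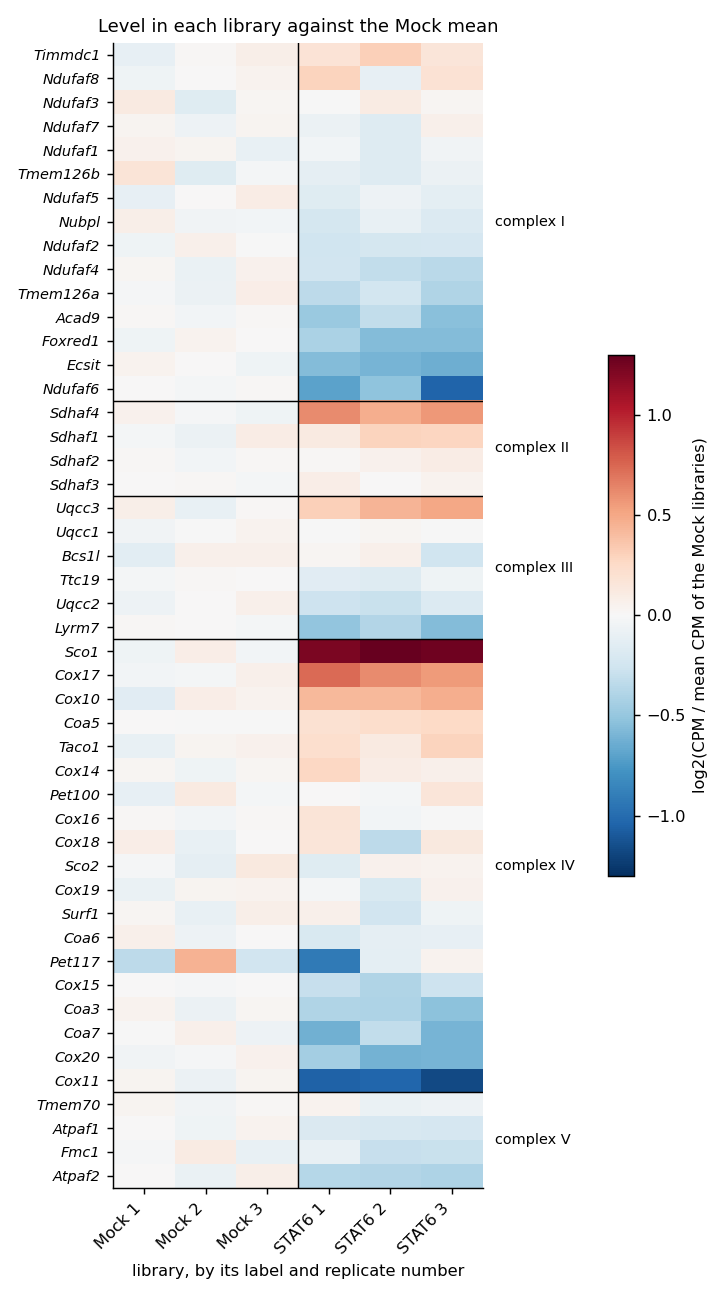
Level of each of the 48 genes (rows, by complex) in each of the 6 libraries (columns), as log2 of the CPM over the mean CPM of the 3 libraries labelled Mock (colour scale, red higher, blue lower). Columns of a group look alike for Sco1, Cox17, Cox11 and Ecsit, while Pet117, with a mean of 53.3 counts, varies within both groups.

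Complex II had a single called factor of 4 (25%, against 72.6% of all genes), and it rose. Sdhaf4 binds Sdha once its flavin is attached. It had 23.6, 21.4 and 22.9 CPM in the libraries labelled STAT6 and 16.1, 15.3 and 14.9 CPM in those labelled Mock. Every library labelled STAT6 was above every Mock library, and the log2 fold change was 0.56 (SE 0.07, adjusted p = 3.91e-09). Sdhaf1, which with Sdhaf3 guides iron-sulfur clusters into Sdhb, was at 0.22 and missed the threshold (adjusted p = 0.0553), although the groups did not overlap, at 7.73, 8.75 and 8.67 against 7.03, 6.76 and 7.65 CPM. It passed with the replicate number as a block (adjusted p = 0.0495), without STAT6 replicate 1 (0.0327) and without Mock replicate 3 (0.0407). Sdhaf2, which attaches the flavin (0.06, 95% interval -0.05 to 0.16), and Sdhaf3 (0.05, interval -0.12 to 0.22) had overlapping groups.

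Complex III factors split by 1 higher (16.7%, against 35.8% of all genes), 2 lower (33.3% against 36.8%) and 3 not past the threshold. Uqcc2, which acts with Uqcc1 on newly made cytochrome b, had 68.1, 67.1 and 72.3 CPM against 78.0, 82.1 and 85.6. The groups were apart (-0.25, SE 0.04, adjusted p = 4.07e-06). Its partner Uqcc1 had 37.6, 38.4 and 37.6 CPM against 36.5, 37.7 and 39.0, a difference of 0.00 with an interval from -0.10 to 0.10. Uqcc3, which acts on cytochrome b after them, had few counts, at 4.27, 4.69 and 4.90 CPM against 3.64, 3.23 and 3.50. Its rise of 0.41 (SE 0.14, adjusted p = 0.0108) did not pass in DESeq2 (adjusted p = 0.0952) or when STAT6 replicate 3 was left out (0.0508). The factors of the Rieske protein were Lyrm7, Bcs1l and Ttc19. Lyrm7, its chaperone in the matrix, fell from 4.60, 4.57 and 4.48 CPM in the libraries labelled Mock to 3.19, 3.50 and 3.09 (-0.48, SE 0.15, adjusted p = 0.00375). Bcs1l, the translocase that places it in the membrane, was at -0.05 (adjusted p = 0.657). Ttc19, which helps to clear its cleaved fragments, was at -0.12 (adjusted p = 0.0807), and passed without STAT6 replicate 3 (adjusted p = 0.0466).

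Complex IV, which has the most factors here, held the widest range. Of its 19 factors 6 rose, 5 fell and 8 did not pass, and the median was -0.03. That is 31.6% higher and 26.3% lower, against 35.8% and 36.8% of all genes. The summed level was 688, 669 and 682 CPM in the libraries labelled STAT6 and 593, 600 and 608 CPM in those labelled Mock, with no overlap and a ratio of 1.13. Coa5 alone made up 13.1% to 15.8% of the counts of all 48 genes, and Sco1 and Cox17 contribute to the higher sum, so the sum and the median do not point the same way.

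Of the 7 genes of copper delivery 2 rose, 1 fell and 4 did not pass. Sco1 passes copper to the COX2 subunit. It stood at 70.6, 74.9 and 72.5 CPM in the libraries labelled STAT6 and at 29.0, 32.1 and 29.4 CPM in those labelled Mock. The groups were far apart, a 2.41-fold rise (log2 fold change 1.27, SE 0.05, adjusted p = 9.66e-23). Cox17, the carrier that brings copper to Sco1, Sco2 and Cox11 in the intermembrane space, had 94.9, 87.3 and 83.7 CPM against 55.6, 55.8 and 59.5. It rose 1.55-fold (0.64, SE 0.05, adjusted p = 1.92e-14). Cox11, which delivers copper to the COX1 subunit, was lower, at 8.59, 8.70 and 7.88 CPM against 18.1, 16.9 and 18.2. Its level was 0.473 of that in the libraries labelled Mock (-1.08, SE 0.08, adjusted p = 3.35e-14). Cox17 and Sco1 thus rose while Cox11 fell.

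The other copper factors did not pass. Sco2, the paralog of Sco1, had 9.45, 10.97 and 10.9 CPM against 10.5, 9.69 and 11.5, and the groups overlapped (-0.03, interval -0.21 to 0.16, adjusted p = 0.808). Cox16 (0.05, adjusted p = 0.416) and Cox19 (-0.05, adjusted p = 0.524), which act on copper transfer or its redox state, had overlapping groups too. Coa6, which works with the Sco proteins, had groups that did not overlap, at 9.88, 10.5 and 10.6 CPM against 11.9, 10.8 and 11.4, yet missed the threshold (-0.14, adjusted p = 0.138). It passed as lower when scaled to library totals (adjusted p = 0.0255). The 95% intervals of Sco1 (1.17 to 1.37) and Sco2 did not overlap, but the difference itself was not tested.

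**Figure D4:**
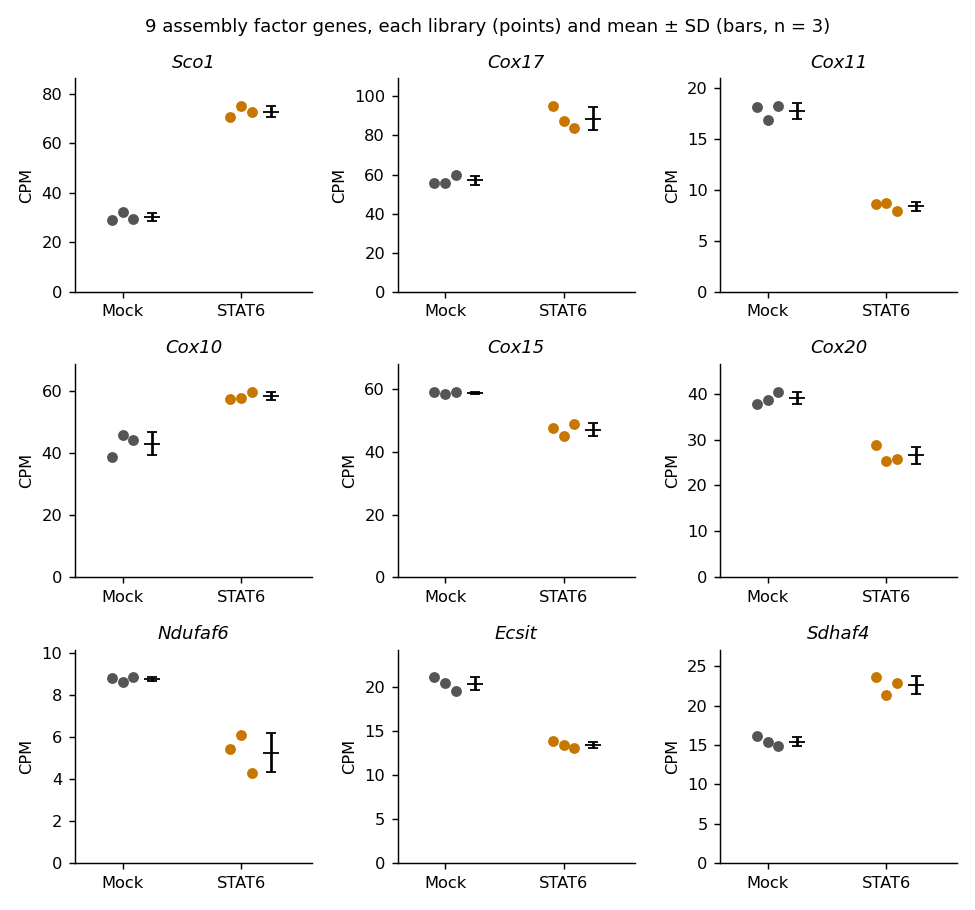
CPM (y axis, from 0) of 9 assembly factor genes in each library (points) by label (x axis), with mean ± SD (bars, n = 3 per group). The libraries labelled STAT6 are above those labelled Mock for Sco1, Cox17, Cox10 and Sdhaf4 and below them for Cox11, Cox15, Cox20, Ndufaf6 and Ecsit, with no overlap in any panel.

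The enzymes of heme A synthesis moved in opposite directions. Cox10 makes heme O from heme B and rose, with 57.5, 57.8 and 59.9 CPM against 38.9, 45.9 and 44.5 (0.44, SE 0.05, adjusted p = 2.64e-09). Cox15 turns heme O into heme A and fell, with 47.7, 45.1 and 48.9 CPM against 59.2, 58.4 and 59.1 (-0.32, SE 0.04, adjusted p = 9.35e-08). Neither pair of groups overlapped.

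Factors for the synthesis and insertion of COX1 and COX2 were also divided, with 2 higher, 2 lower and 1 not past the threshold. Cox20, the chaperone of newly inserted COX2, had 28.7, 25.4 and 25.7 CPM against 37.8, 38.7 and 40.4. It fell (-0.55, SE 0.06, adjusted p = 1.01e-10). Cox18, the insertase for the same subunit, was at 0.01 with an interval from -0.22 to 0.24. Coa3, which with Cox14 holds newly made COX1, had 13.8, 13.7 and 12.5 CPM against 18.7, 17.2 and 18.4 (-0.44, SE 0.07, adjusted p = 1.93e-06). Cox14 itself was slightly higher, at 23.2, 20.6 and 20.2 CPM against 19.6, 18.6 and 19.6 (0.15, SE 0.07, adjusted p = 0.0464). That call was lost with library totals alone (adjusted p = 0.329), no filter on low counts (0.125), DESeq2 (0.25) and the replicate block (0.0516), and without STAT6 replicate 1 (0.356) or Mock replicate 1 (0.0639), 2 (0.139) or 3 (0.0658). Taco1, the translation activator of COX1, had 18.0, 16.7 and 18.9 CPM against 14.4, 15.9 and 15.98. Its rise of 0.21 (SE 0.07, adjusted p = 0.0102) did not pass when scaled to library totals (adjusted p = 0.0924), in DESeq2 (0.109), or when STAT6 replicate 3 (0.0711) or Mock replicate 1 (0.0661) was left out.

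Among the other complex IV factors Coa5 rose and Coa7 fell. Coa5, a small protein of the intermembrane space, had 193, 196 and 200.04 CPM against 169, 167 and 167 and was the most counted of the 48 genes. Its groups were clearly separate although the change was small (0.23, SE 0.03, adjusted p = 1.14e-07). Coa7, a heme-binding protein of the same space, had 7.51, 9.27 and 7.59 CPM against 11.5, 12.1 and 11.05 (-0.51, SE 0.10, adjusted p = 1.57e-05). Surf1, the factor whose loss is a classic cause of Leigh syndrome, had overlapping groups at 17.0, 13.6 and 15.6 CPM against 16.5, 15.1 and 17.0 (-0.07, adjusted p = 0.418). Pet100 (0.05, adjusted p = 0.556) and Pet117 (-0.28, adjusted p = 0.312) did not pass.

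For complex V 3 factors fell, none rose and Tmem70 did not pass. The 3 that fell are 75% of only 4 genes, against 36.8% of all genes. Their summed level was 102, 96.0 and 96.5 CPM against 112, 108 and 113. Atpaf2, the chaperone of the alpha subunit, had 20.4, 20.2 and 19.98 CPM against 26.4, 24.9 and 27.8 (-0.39, SE 0.06, adjusted p = 1.1e-06). Atpaf1, the chaperone of the beta subunit, had 25.3, 24.9 and 24.9 CPM against 29.0, 27.7 and 29.9 (-0.21, SE 0.06, adjusted p = 0.00181). Both chaperones were lower in every library labelled STAT6 than in any labelled Mock. Fmc1, known in yeast as a partner of the Atpaf2 homolog, had 11.7, 10.1 and 10.2 CPM against 12.4, 13.4 and 11.6, with a slight overlap. Its fall (-0.21, SE 0.09, adjusted p = 0.0289) no longer passed in DESeq2 (adjusted p = 0.142). Leaving out STAT6 replicate 2 (adjusted p = 0.114), STAT6 replicate 3 (0.0977) or Mock replicate 2 (0.117) also ended the call. Tmem70, which helps to form the ring of c subunits, was at -0.03 with an interval from -0.13 to 0.07.

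Each factor was then set beside the subunit it is known to handle, over 25 such pairs. In 14 pairs both genes passed, in 8 of them in the same direction and in 6 in opposite directions. Of all genes tested 72.6% passed, 35.8% as higher and 36.8% as lower. Whether these pairs differ from other pairs of genes was not tested. For complex II all 4 factors had a higher fold change than their subunit, as Sdhb fell by 0.38 and Sdha by 0.24 on the log2 scale, while Sdhaf4 rose. For complex V the chaperones and their subunits fell by like amounts, Atpaf1 at -0.21 beside Atp5b at -0.27, and Atpaf2 at -0.39 beside Atp5a1 at -0.26. Uqcrfs1, the Rieske protein, fell (-0.33) and so did its chaperone Lyrm7 (-0.48).

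Of the 13 mtDNA-encoded protein genes 12 rose (92.3%, against 35.8% of all genes) and 1, ATP8, fell (-0.07). The 3 that stand in these pairs are COX1, COX2 and CYTB, and their factors went either way. COX2 rose by 0.62, and beside it Sco1 rose by more, Cox20 fell (-0.55), and Cox18 (0.01), Sco2 (-0.03) and Coa6 (-0.14) did not pass. COX1 rose by 0.14, beside the rises of Cox10, Taco1 and Cox14 and the falls of Cox11, Cox15 and Coa3. CYTB rose by 0.60, beside Uqcc1 at 0.00, Uqcc2 at -0.25 and Uqcc3 at 0.41. The widest gap was between Ndufaf5 (-0.12) and its substrate Ndufs7 (1.21). Differences between the genes of a pair were not tested. Pairs that share a subunit are not independent, and mtDNA transcripts are made and processed apart from nuclear ones.

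**Figure D5:**
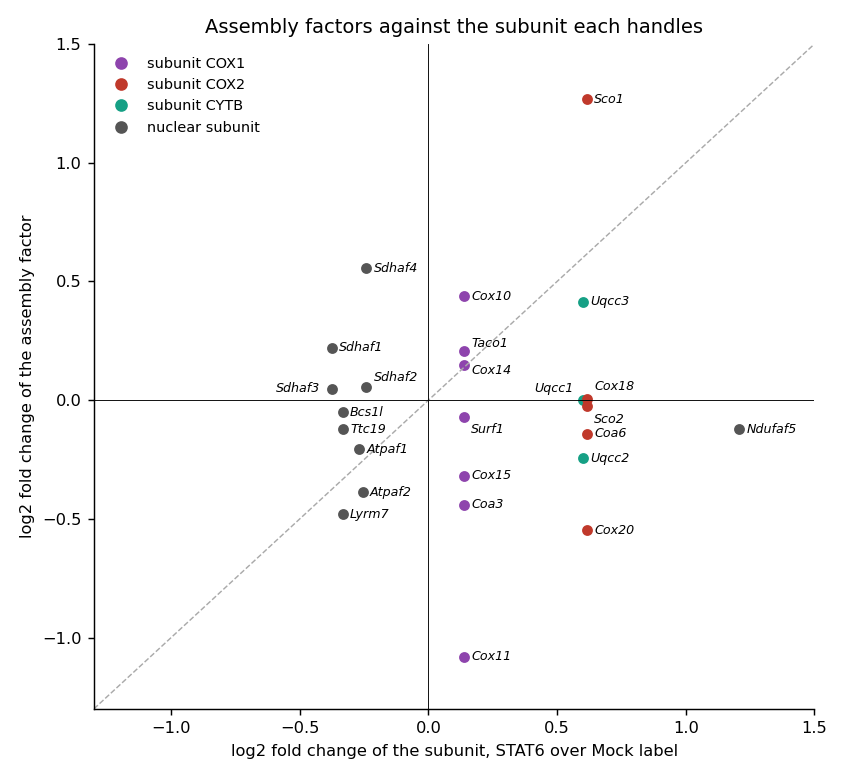
Log2 fold change of 25 assembly factor genes (y axis) against that of the subunit each handles (x axis), libraries labelled STAT6 over Mock; purple, red and green points belong to COX1, COX2 and CYTB, grey to nuclear subunits, and the dashed line marks equal change. Factors of COX2 run from -0.55 (Cox20) to 1.27 (Sco1) at the same value of the subunit, and all complex II factors lie above the line.

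Related genes of the same pathway went in both directions, as did all genes tested. Of 23 further assembly factors tested from a list of 24, 8 rose, 7 fell and 8 did not pass, 65.2% called and 21.7% called beyond 1.5-fold, with a median of 0.05. The smallest adjusted p belonged to Aifm1 (-0.58), which supports import of small proteins of the intermembrane space, Tmem177 (0.99), which acts on COX2 with Cox20, and the complex III factor Uqcc5 (0.64). Tmem177 went from 9.45 ± 0.336 to 18.8 ± 1.45 CPM (adjusted p = 1.74e-13), opposite to Cox20. The 78 nuclear subunits had 29 higher and 31 lower, 76.9% called and 10.3% called beyond 1.5-fold, with a median of -0.00. The corresponding shares were 54.2% and 10.4% of the 48 assembly factors, and 72.6% and 29.1% of all genes. By direction, 37.2% of the nuclear subunits rose and 39.7% fell, near the 35.8% and 36.8% of all genes. Of the 23 further factors 34.8% rose and 30.4% fell. The differences between these lists were not tested. By complex, subunits of I had 16 higher and 14 lower of 37, of II 0 and 3 of 4, of III 3 and 5 of 9, of IV 5 and 1 of 11, and of V 5 and 8 of 17.

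Iron-sulfur cluster genes, which supply complexes I, II and III, had 2 higher, 6 lower and 9 not past the threshold of 17. That is 11.8% higher and 35.3% lower, against 35.8% and 36.8% of all genes. Isca1, a late-acting carrier of clusters, went from 51.9 ± 0.857 to 35.6 ± 2.08 CPM (-0.54, SE 0.05, adjusted p = 5.04e-12). Hspa9, the mitochondrial Hsp70, was at -0.25 (adjusted p = 3.56e-10). The summed level of the 17 genes was 1151 to 1161 CPM in the libraries labelled STAT6 and 1333 to 1345 in those labelled Mock. Coenzyme Q synthesis had 2 higher (15.4%), 3 lower (23.1%) and 8 not past the threshold of 13. Coq8a, an atypical kinase of this pathway, rose by 1.68 and Coq10b by 0.94, while Pdss1, which builds the side chain, fell by 0.83 on the log2 scale.

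Several assembly factor genes lay among neighbours that moved with them. As no mouse gene order was used here, neighbours were taken from the human order (GRCh38.p14, 10 protein-coding genes on each side), which need not hold in mouse. Of the 26 called genes 20 (76.9%) had a fold change on the same side as the median of their neighbours, against 59.6% of 8128 called genes placed in the same way. Examples in this paragraph were chosen after their values were seen. Beside Sco1 all 5 tested neighbours rose, namely Gas7 (1.24), Myh3 (3.47), Adprm (1.41), Tmem220 (2.54) and Map2k4 (0.60). Beside Taco1 all 13 rose, with a median of 0.66, among them Dcaf7 (0.78) and Smarcd2 (0.99). Lyrm7 had 9 lower and 1 higher of 11 neighbours, such as Hint1 (-1.10) and Rapgef6 (-1.07). Foxred1 had 10 lower and 1 higher of 12, and Ndufaf4 9 lower and 0 higher of 14. Cox11 fell beside 6 higher and 6 lower of 13, whose median was -0.10. Ecsit and Fmc1 fell among neighbours with a median above 0, with 5 higher and 1 lower of 9 and with 9 higher and 0 lower of 13.

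Overlap with other genes may limit some of these values, but it was looked up only in the human annotation, and its effect was not tested. In the human annotation 17 of the 48 counterparts overlap another protein-coding gene. They include SCO1 (with MYH3), COX11 (with TOM1L1 and STXBP4), NDUFAF6 (with CCNE2 and TP53INP1), ACAD9 (with CFAP92), COX15 (with ENTPD7), ATPAF2 (with DRC3) and FMC1 (with LUC7L2). Beside Cox11, Stxbp4 was at -0.72 and Tom1l1 at -0.13. The library kit keeps strand, but the strand setting of the counting is not given in the sources used here, so reads of overlapping genes on opposite strands may not be told apart.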

How the data were processed

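Poly(A) RNA libraries (a stranded mRNA kit, per the labels' protocols) of 2 groups of 3 were analysed. The authors deposited 1 whole-number count per gene symbol and library; per the submitters' processing notes the tools were FastQC, STAR, Salmon and edgeR and the build GRCh37. The read-to-gene assignment and filters behind these counts were, in the sources used here, not given. Counts were analysed with edgeR 4.0.16 in R 4.3.3: filterByExpr kept 12938 genes (99.9% of counts), TMM factors were 0.968 to 1.03, and glmQLFit (robust) and glmQLFTest were fitted with group as the only term, 2-sided, Benjamini-Hochberg adjusted over all genes, threshold 0.05. Adjusted p-values are from this fit unless another is named. SEs are the coefficient over the root of the F statistic; 95% intervals cover the modelled spread between these libraries. CPM uses TMM-scaled totals. Alternatives were those named in the closing section, DESeq2 1.42.0 among them. The fit was tested on simulated counts in which few genes were changed, unlike in these data. It recovered 32 of 50 changes of 1.2-fold (64%), 39 of 49 of 1.5-fold (79.6%), 45 of 49 of 2-fold and 48 of 48 of 4-fold. The genes, role groups, subunit pairs and lists were chosen with earlier results of these data known. The rule names all 48 genes, with values in every library for up to 4 genes of smallest adjusted p per role group, Stat6, and up to 3 genes of each related list; a few of these are not reported here, and genes outside it are shown where a result rests on them. Older symbols matched 10 entries of the complex V list, chosen after the rows were seen. No mouse sequence or coordinates were used here.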

Additional observations from a re-analysis of the deposited data

How the results depend on the processing

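The counts of 9 higher and 17 lower assembly factor genes were the same with DESeq2 size factors in edgeR, with totals that omit the mtDNA genes and with the replicate block. They were 8 and 17 with all genes with a count kept, 7 and 20 scaled to library totals, and 6 and 16 in DESeq2 itself, and with a library left out 7 to 9 and 16 to 18. A test for a change beyond 1.2-fold (glmTreat) called 4 higher and 10 lower, and 5821 of all genes in place of 9399. Of the 26 called genes 22 kept their call and direction in each of these 6 alternatives, glmTreat aside, and with each of 6 libraries left out, the exceptions being Uqcc3, Taco1, Cox14 and Fmc1. No called gene changed direction in these fits. Scaled to library totals, Ndufaf5 (adjusted p = 0.0116), Ttc19 (0.00594) and Coa6 (0.0255) passed as lower, as did Ndufaf5 without Mock replicate 1 (0.0331), and the median was -0.15 for the 48 genes and -0.08 for all genes, against -0.07 and -0.00. Genes that did not pass and changed sign were, scaled to library totals, Ndufaf3 (-0.0354), Sdhaf2 (-0.0184), Sdhaf3 (-0.0258), Uqcc1 (-0.0720), Cox16 (-0.0249), Cox18 (-0.0684) and Pet100 (-0.0249); with no filter Uqcc1 (-0.0148) and Cox18 (-0.0109); and with DESeq2 Uqcc1 (-0.00458) and Cox18 (-0.00578). With a library left out the sign changed for Ndufaf3 (-0.0326 to 0.0875), Bcs1l (-0.118 to 0.0394), Uqcc1 (-0.0263 to 0.0256), Cox16 (-0.0239 to 0.0895), Cox19 (-0.106 to 0.0146), Sco2 (-0.0876 to 0.0427), Cox18 (-0.0868 to 0.145), Surf1 (-0.152 to 0.00822) and Pet100 (-0.00920 to 0.102). The cause was not tested.

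The labels link same-numbered libraries of the groups by number alone, and whether they were handled together is not known here. Deviations of the same-numbered libraries correlated at 0.05, 0.10 and 0.03 across genes. Each library correlated best with its own number except Mock replicate 3, which correlated best with STAT6 replicate 1. With the replicate block 9 genes were higher, 17 lower and 9422 of all genes called. Sdhaf1 then passed, Cox14 did not, and Cox18 changed sign (-0.000536). Depth limits genes of few counts, above all Pet117, Lyrm7 and Uqcc3.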
